A study of Rattus norvegicus with 10 samples.

Results

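The muscle atrophy ubiquitin ligases are enzymes that attach ubiquitin to proteins of the muscle fibre, and their transcripts were compared between femoral skeletal muscle taken 48 h after death and muscle taken at 0 h. The list holds 10 genes, Trim63, Trim54, Trim55, Trim72, Fbxo32, Fbxo30, Fbxo40, Fbxo21, Mul1 and Stub1. A probe set, the group of short oligonucleotides that reads a gene on the array, carried the name of 9 of them in the platform's probe table, with a single probe set each, out of 15037 genes with a symbol and 23188 probe sets tested. Fbxo40 is not named in that table and was not analysed here. The 48 h group held 5 adult male wild-type Wistar rats that were euthanized by cervical dislocation and held at 25 °C in a climatic chamber for 48 h, and the 0 h controls were 5 adult male wild-type Wistar rats euthanized in the same way and sampled at once, with 1 Clariom S Rat array per rat. No rat was measured at both times, so the comparison is between animals.

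Ubiquitin is a small protein whose chains mark other proteins for the proteasome, and the ligase is the enzyme that selects the protein to be marked. In living muscle, Trim63 (MuRF1) and Fbxo32 (atrogin-1) are the usual transcript markers of wasting, since disuse, fasting, denervation and glucocorticoids raise both, largely through FoxO transcription factors that insulin and IGF-1 signalling hold back. The TRIM members carry a RING finger of their own, while the Fbxo members are substrate-binding subunits of SCF ligases, which also need Skp1, a cullin and a RING protein.

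The deposited values were log2 signals made with RMA, which scales the arrays to each other, so that a loss shared by all transcripts is not visible. Array medians lay between 5.17 and 5.21 in both groups, but the 99th percentile of an array was 9.82 to 10.02 at 48 h and 10.64 to 10.72 at 0 h, and the background probe sets had medians of 3.54 to 3.82 at 48 h and 3.04 to 3.14 at 0 h. Values at 48 h therefore covered a narrower range. The RNA integrity at 48 h was not assessed in the study. Over all probe sets the 48 h arrays correlated with each other at 0.901 to 0.941 (Pearson) and the controls at 0.978 to 0.988. As a yardstick for genes not expected in muscle, the 95th percentile of 33 olfactory receptor probe sets was 4.85 to 5.65 at 48 h and 4.14 to 4.30 at 0 h. The tissue label was checked with myofibre markers, whose array mean was 10.51 to 11.63 at 48 h and 12.56 to 12.73 at 0 h; 5 of 9 measured were lower at 48 h, or 2 after cyclic loess and 8 with olfactory centring. Markers of other cells also moved. Of the endothelial markers 6 of 7 were higher (array means of 8.17 to 8.91 at 48 h and 6.77 to 7.34 at 0 h), of the erythroid markers 4 of 5 were higher (8.66 to 9.37 at 48 h and 7.02 to 7.89 at 0 h), and of the fibroblast markers 4 of 5 were lower (8.01 to 8.22 at 48 h and 9.10 to 9.56 at 0 h), or 1 of 5 after cyclic loess or quantile normalization. For macrophages 1 of 5 markers was lower, and for adipocytes 1 was lower and 1 higher of 5, while with olfactory centring 4 macrophage and 2 adipocyte markers were lower. The part of these shifts in the changes of the ligases was not tested, and in whole muscle fewer fibres and less RNA per fibre cannot be told apart.

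The ligases that are largely restricted to striated muscle, Trim63, Trim55, Trim54, Trim72 and Fbxo32, fell at 48 h, with changes of −2.92 to −2.12 (log2). The broadly expressed ones, Fbxo30, Fbxo21, Mul1 and Stub1, were at −0.85 to −0.33 and did not pass the criteria. Fbxo21 was too dim for a fall to be measured, and Fbxo30 too dim for a fold of 2 above the olfactory receptor level. Among the broadly expressed genes the contrast thus rests on Mul1 and Stub1. A gene was called lower or higher at a fold change of at least 2 with an adjusted p under 0.05, from limma with Benjamini-Hochberg adjustment over all 23188 probe sets. By this rule 5 of 9 ligases fell and 0 rose, while 12.1% of all probe sets were lower and 4.35% higher. Among genes with a symbol 14.4% were lower and 3.85% higher, and among probe sets at or above the median level 22.7% were lower. With the adjusted p alone, 8 of the 9 ligases were lower and 0 higher, beside 22.8% of all probe sets lower and 22.0% higher. The median change was −2.12 over the 9 ligases, or −1.07 with the 3 that lay below the level of olfactory receptors in all rats at 48 h (Trim55, Trim72 and Fbxo21) set at that level, against 0.10 over all probe sets and −0.26 over those at or above the median level. All rats at 48 h lay below all rats at 0 h in 6 of the 9 ligases and in 17.7% of all probe sets. The division into muscle-restricted and broadly expressed genes is background knowledge and was drawn with the values known. It does not describe muscle genes at large. Of 9 myofibre markers 5 were lower, while Acta1 (−0.71), Tnnt3 (−0.86) and Pvalb (−0.91) missed the fold of 2 and Atp2a1 was at 0.31. The markers named here were picked after their values were seen. Of the other Trim genes 5 of 39 were also lower, with Trim16 at −2.57, and of the other Fbxo genes 7 of 25.

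**Figure D1:**
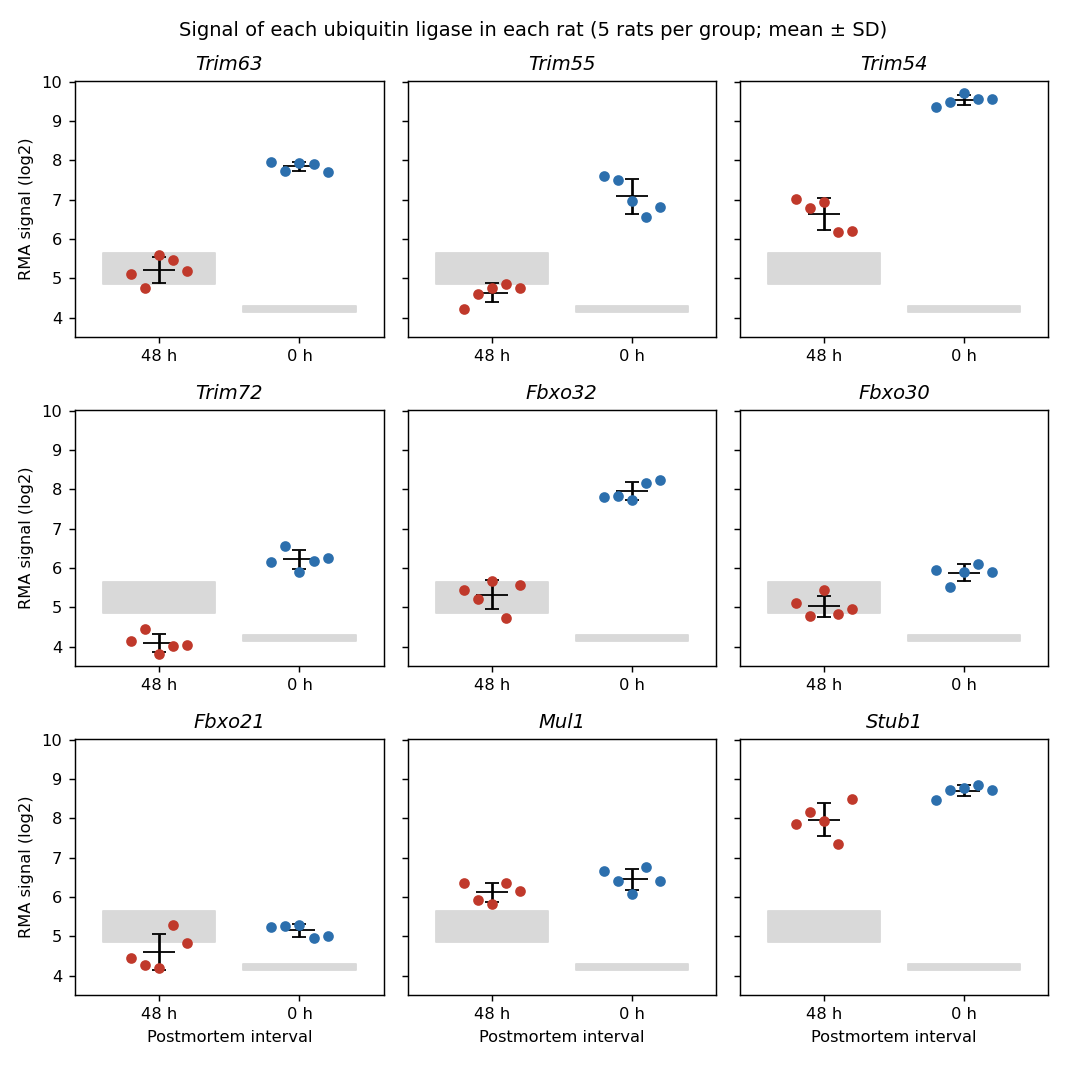
RMA signal (log2, vertical axis) of the 9 ligases in each rat at 48 h (red) and 0 h (blue), with the mean and SD of 5 rats; the grey band is the range over the arrays of the 95th percentile of olfactory receptor probe sets. In Trim63, Trim55, Trim54, Trim72 and Fbxo32 the groups are at least 1.45 apart, while Fbxo21, Mul1 and Stub1 overlap.

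**Figure D2:**
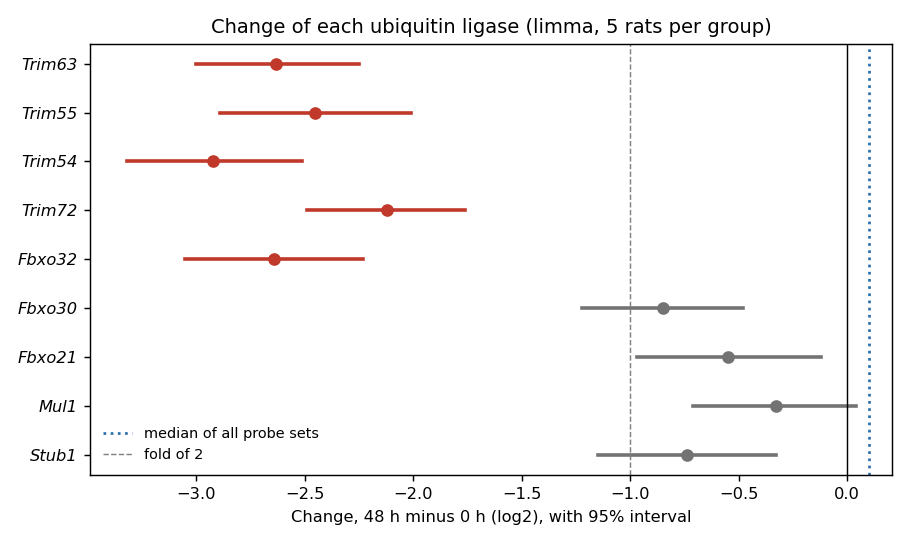
Change of each ligase, 48 h minus 0 h (log2), with its 95% interval from limma (5 rats per group); red marks genes that met the criteria. The 5 red intervals end at or below −1.76, and the intervals of the 4 grey genes all reach above −1, the fold of 2.

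Trim63 encodes MuRF1, a RING finger protein that binds titin at the M-band and ubiquitinates proteins of the thick filament. In order of rat number, the log2 signal 48 h after death came to 5.10, 4.74, 5.59, 5.46 and 5.19, against 7.96, 7.72, 7.92, 7.91 and 7.70 at 0 h. The groups were 2.12 apart at their nearest rats, and the controls were tightly grouped, with an SD of 0.33 at 48 h and 0.12 at 0 h (n = 5 each). Trim63 fell by 2.63 (standard error 0.18, 95% interval −3.00 to −2.25, adjusted p = 1.41e-08 from limma), which left 16.2% of the 0 h signal. At 48 h it exceeded the olfactory receptor level in 3 of 5 rats, and at 0 h in 5 of 5. The 48 h mean of 5.22 lay near that level's 48 h mean of 5.15, so 16.2% is not a firm measure of the transcript left.

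The promoter window of Trim63 is shown because this gene's response to FoxO factors and to the glucocorticoid receptor is well known in living muscle. It covers chr5:151816986-151817285 on the plus strand of GRCr8, 250 bases before to 50 bases after the start of the RefSeq gene, 5′ to 3′. Capitals mark the glucocorticoid receptor half-site TGTTCT and the FOXO motif TGTTTAC, found by a search of both strands.
Trim63: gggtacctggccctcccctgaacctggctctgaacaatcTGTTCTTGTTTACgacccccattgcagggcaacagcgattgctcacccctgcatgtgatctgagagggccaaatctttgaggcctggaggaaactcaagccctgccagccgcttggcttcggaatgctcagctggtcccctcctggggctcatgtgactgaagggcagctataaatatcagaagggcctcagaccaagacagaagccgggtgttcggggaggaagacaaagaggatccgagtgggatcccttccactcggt
The half-site lies from −211 to −206 and the FOXO motif follows it directly, from −205 to −199 relative to the start, without overlap. With the 9 bases before it, the half-site matched 11 of the 12 fixed letters of the full palindromic receptor element. TGTTTAC occurs in 3.78% of 33469 promoter windows of the same length and TGTTCT in 20.7%, and 309 windows (0.923%) hold both. The half-site stands directly before the FOXO motif in 2 windows, but this arrangement was read from the Trim63 window itself, so its rarity is a description only. These are matches of letters, and binding was not measured here.

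Trim55 and Trim54 encode MuRF2 and MuRF3, the paralogs of MuRF1, which associate with the sarcomere and with microtubules. Trim55 was 4.22, 4.61, 4.74, 4.85 and 4.75 (log2) in the rats at 48 h, against 7.59, 7.50, 6.97, 6.56 and 6.80 at 0 h. Its control rats were the most spread of the 9 ligases, with an SD of 0.25 at 48 h and 0.45 at 0 h, yet the groups were 1.71 apart. Trim55 fell by 2.45 (standard error 0.21, adjusted p = 1.11e-07 from limma). In all 5 rats at 48 h Trim55 lay below the olfactory receptor level, so its fold is a bound. With that level in place of the lower values, it was at least 3.83-fold lower. Trim54 was 7.01, 6.79, 6.94, 6.18 and 6.20 (log2) in the rats at 48 h, against 9.36, 9.49, 9.72, 9.57 and 9.55 at 0 h. It stayed above the olfactory receptor level in 5 of 5 rats at 48 h, and rats 4 and 5 were the lowest. Trim54 fell by 2.92 (standard error 0.19, 95% interval −3.32 to −2.51, adjusted p = 1.19e-08 from limma), to 13.2% of its 0 h signal.

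Whether the 3 MuRF genes fell by unequal amounts was tested on the difference between a pair of log2 values within each array, with a two-sided exact permutation test over the 10 rats, in 4 pairs. Trim55 minus Trim54 was −1.99 ± 0.60 at 48 h, against −2.46 ± 0.54 in controls (SD of 5 rats), a change of 0.47 (standard error 0.36, exact p = 0.214, 0.635 adjusted over the 4 pairs). Trim63 minus Trim54 differed by 0.29 (standard error 0.27, exact p = 0.325, adjusted 0.635), and Trim63 minus Trim55 by −0.18 (standard error 0.25, exact p = 0.476, adjusted 0.635). These differences were within the spread between rats, which does not show that the genes fell alike. Trim55 lay below the olfactory receptor level at 48 h, so the size of both differences that hold it is limited by that level. For Trim63 minus Fbxo32, the pair commonly used as atrophy markers, it was −0.10 ± 0.49 at 48 h, against −0.11 ± 0.30 in controls (SD of 5 rats), a change of 0.01 (standard error 0.26, exact p = 0.984, adjusted 0.984). At 0 h Trim63 and Fbxo32 began at similar means, 7.84 and 7.96 (log2). At 48 h each exceeded the olfactory receptor level in 3 of 5 rats, with means near it. This pair could therefore hardly show an unequal fall, and Trim63 minus Trim54 is limited by that level too. The smallest p this design allows is 0.00794.

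Trim72 encodes MG53, a TRIM protein of striated muscle that helps to reseal the injured cell membrane and ubiquitinates the insulin receptor substrate IRS1 in mice. It was 4.14, 4.45, 3.81, 4.01 and 4.05 (log2) at 48 h, against 6.16, 6.57, 5.91, 6.19 and 6.26 at 0 h. The groups were 1.45 apart and equally tight, with SDs of 0.23 at 48 h and 0.24 at 0 h (n = 5 each). Trim72 fell by 2.12 (standard error 0.17, adjusted p = 6.79e-08 from limma). All 5 rats at 48 h lay below the olfactory receptor level, and against that level the fall was at least 2.10-fold. Its promoter window, chr1:192043970-192044269 on the plus strand of GRCr8, is shown because it was the only one of the 7 available windows with a match to MEF2, a motif of muscle genes that 3.29% of all windows hold; capitals mark that match and the half-site TGTTCT on the minus strand.
Trim72: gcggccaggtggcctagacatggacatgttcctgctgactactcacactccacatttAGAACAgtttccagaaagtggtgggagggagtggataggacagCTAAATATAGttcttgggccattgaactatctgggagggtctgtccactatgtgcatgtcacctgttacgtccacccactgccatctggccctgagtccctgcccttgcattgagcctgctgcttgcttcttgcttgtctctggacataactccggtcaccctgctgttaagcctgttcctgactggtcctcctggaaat
The MEF2 match lies from −150 to −141 and the half-site from −193 to −188. TGTTTAC was found in Trim63 alone among the 7 windows, and Trim54, Trim72, Fbxo30, Fbxo21, Mul1 and Stub1 lacked these letters.

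Fbxo32 encodes atrogin-1, the muscle F-box protein whose substrates include the initiation factor subunit eIF3f and MyoD. It was 5.44, 5.21, 5.66, 4.72 and 5.57 (log2) in the rats at 48 h, against 7.80, 7.84, 7.73, 8.17 and 8.24 at 0 h. Rat 4 was the lowest at 48 h, and the groups were 2.07 apart. Fbxo32 fell by 2.64 (standard error 0.19, 95% interval −3.05 to −2.23, adjusted p = 2.82e-08 from limma), which left 16.1% of the 0 h signal. It exceeded the olfactory receptor level in 3 of 5 rats at 48 h. The 48 h mean of 5.32 lay near that level's 48 h mean of 5.15, so 16.1% is not a firm measure of the transcript left.

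Fbxo30, known as MUSA1, is induced in denervated mouse muscle and is held back by BMP signalling. It was 5.10, 4.78, 5.44, 4.83 and 4.96 (log2) at 48 h, against 5.95, 5.52, 5.90, 6.11 and 5.89 at 0 h. All rats at 48 h lay below those at 0 h, by a gap of only 0.08 between rat 3 at 48 h and rat 2 at 0 h. It was lower by 1.81-fold, −0.85 on the log2 scale (standard error 0.18, limma adjusted p = 0.000833), which is under the fold of 2 required. Only 3 of 5 rats at 48 h exceeded the olfactory receptor level. From the Fbxo30 mean of 5.88 at 0 h, a fall by a fold of 2 would end below that level's 48 h mean of 5.15. Fbxo21, known as SMART, is another FoxO-dependent F-box gene of atrophying mouse muscle. It was 4.46, 4.27, 4.19, 5.28 and 4.82 at 48 h, against 5.25, 5.27, 5.29, 4.95 and 5.0 at 0 h. Rat 4 at 48 h lay within the range of the controls, so the groups overlapped. Its difference was −0.55 (standard error 0.20, limma adjusted p = 0.0371), its SD was 0.45 at 48 h, against 0.16 in controls, and 0 of the 5 rats at 48 h exceeded the olfactory receptor level. Its mean of 5.15 at 0 h lay at that level's 48 h mean of 5.15, so no size of a fall could be measured for it.

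Stub1 encodes CHIP, a ligase that works with the chaperones Hsc70 and Hsp90 on misfolded proteins, and Mul1 is anchored in the outer membrane of the mitochondrion, where it ubiquitinates mitofusin 2. Stub1 was 7.87, 8.16, 7.93, 7.36 and 8.50 (log2) at 48 h, against 8.48, 8.73, 8.77, 8.84 and 8.72 at 0 h. Only rat 5 at 48 h reached the controls. The difference was −0.74 (standard error 0.19, 95% interval −1.15 to −0.33, adjusted p = 0.00527 from limma). Mul1 was 6.35, 5.92, 5.83, 6.36 and 6.16 at 48 h, against 6.66, 6.40, 6.07, 6.76 and 6.40 at 0 h. It was the ligase with the smallest difference, −0.33 (standard error 0.18, 95% interval −0.71 to 0.04, adjusted p = 0.140 from limma). Both genes were above the olfactory receptor level in all 10 rats.

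The calls of the muscle-restricted ligases held under each other scaling of the arrays, and the values of Mul1 and Stub1 moved. After cyclic loess the 5 muscle-restricted ligases were at −2.35 to −2.17 and after quantile normalization of the probe set values at −2.38 to −2.14, and each was lower by the criteria, beside 8.84% of all probe sets after cyclic loess and 8.62% after quantile normalization. Stub1 was at −0.16 (adjusted p = 0.502) after cyclic loess and at −0.07 after quantile normalization, so that its side of the p threshold depended on the scaling. Mul1 was at −0.06 after cyclic loess and at −0.05 after quantile normalization. With olfactory centring Mul1 was at −0.85 (limma adjusted p = 0.000722), under the fold of 2, so its side of the p threshold moved too. Centred on the olfactory receptors, which moves the median of all probe sets to −0.42, Fbxo30, Fbxo21 and Stub1 also passed, at −1.37, −1.06 and −1.26, so that 8 of 9 were lower, against 23.3% of all probe sets. Centring shifts all values of an array alike. Fbxo21 therefore still exceeded the olfactory receptor level in 0 of 5 rats at 48 h and Fbxo30 in 3 of 5, and the sizes of their falls remain limited by it.

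**Figure D3:**
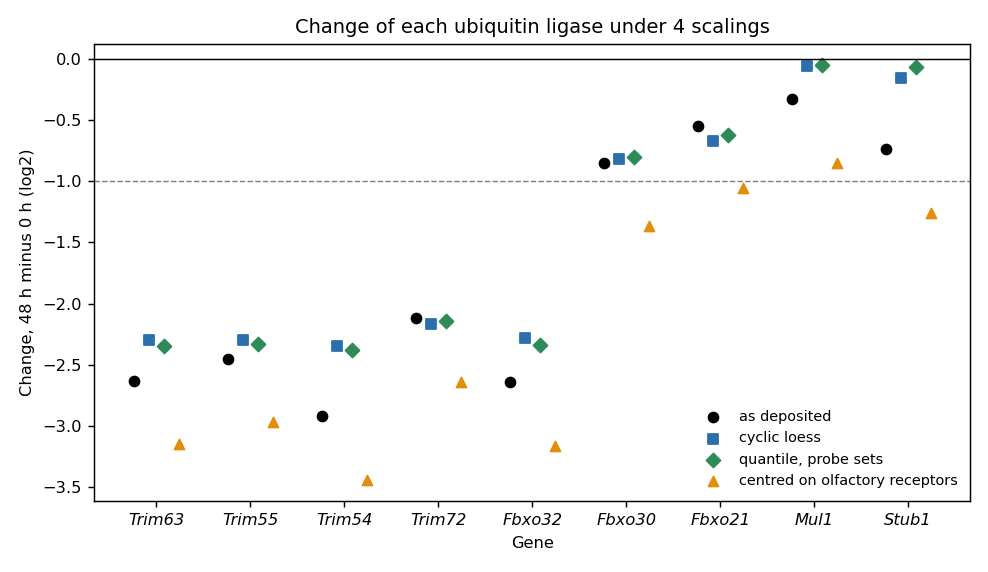
Change of each ligase, 48 h minus 0 h (log2, vertical axis), as deposited and under 3 other scalings of the arrays; the dashed line is a fold of 2. Trim63, Trim55, Trim54, Trim72 and Fbxo32 lie below −2 throughout, while Stub1 ranges between −1.26 and −0.07.

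RefSeq promoter windows were at hand for 7 of the 9 ligases, all but Trim55 and Fbxo32, and their CG counts followed the same division. The number of CG dinucleotides, which are dense at the promoters of broadly expressed genes, was 8 in Trim63, 6 in Trim54 and 3 in Trim72. It was 44 in Fbxo30, 32 in Stub1, 30 in Fbxo21 and 23 in Mul1. To show the difference, the windows of Trim54 (chr6:30978426-30978725, minus strand) and Fbxo30 (chr1:7475589-7475888, plus strand) of GRCr8 follow, 5′ to 3′, with each CG in capitals.
Trim54: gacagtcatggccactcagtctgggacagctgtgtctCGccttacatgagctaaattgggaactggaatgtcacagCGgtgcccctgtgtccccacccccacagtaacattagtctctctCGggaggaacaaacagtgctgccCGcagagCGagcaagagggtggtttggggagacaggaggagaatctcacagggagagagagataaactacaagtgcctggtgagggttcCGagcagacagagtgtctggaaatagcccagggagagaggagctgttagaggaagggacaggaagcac
Fbxo30: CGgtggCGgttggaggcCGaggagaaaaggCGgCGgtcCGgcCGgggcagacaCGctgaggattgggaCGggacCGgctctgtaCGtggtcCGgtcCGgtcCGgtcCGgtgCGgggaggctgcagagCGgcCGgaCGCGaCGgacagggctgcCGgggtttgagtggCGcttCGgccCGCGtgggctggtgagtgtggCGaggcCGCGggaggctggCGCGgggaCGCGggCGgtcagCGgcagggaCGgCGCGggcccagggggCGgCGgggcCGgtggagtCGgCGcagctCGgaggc
Over all genes the order was the opposite. Of 4230 genes with at most 8 CG in the window, 5.74% were lower at 48 h and their median change was 0.31. Of 4077 genes with at least 23 CG, 19.6% were lower and the median was −0.21. These counts take in genes at all signal levels, and the part of signal level in this order was not tested. Both limits were taken from the ligases after their values were seen, and the 7 genes are a description without a test.

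**Figure D4:**
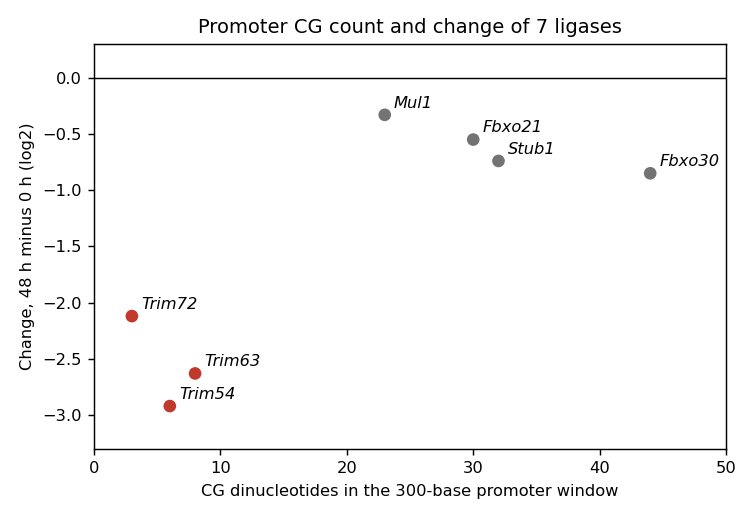
Change at 48 h (log2, vertical axis) against the number of CG dinucleotides in the promoter window for the 7 ligases with a RefSeq window; red marks genes that met the criteria. The 3 genes with 3 to 8 CG lie below −2, and the 4 with 23 to 44 CG lie above −1.

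The families of the ligases are given for comparison, but they were dimmer at 0 h. Array means at 0 h were 5.03 to 5.15 for the other Trim genes and 5.61 to 5.73 for the other Fbxo genes, against 7.14 to 7.25 for the ligases. Dim genes have less room to fall, so the medians do not compare genes at like levels. Of 39 other Trim genes 5 fell and 2 rose (12.8% lower, median 0.09), near the 14.4% among all genes with a symbol, and after quantile normalization 3 fell. The largest changes downward were Trim16 at −2.57, Trim35 at −2.17, Trim8 at −1.20 and Trim27 at −1.12, and Trim25, a ligase of antiviral RIG-I signalling, rose by 1.32 and Trim52 by 1.14. Of 25 other Fbxo genes 7 fell and 0 rose (28.0%, beside the same 14.4%, median −0.24). Fbxo31 and Fbxo6 were at −2.17 each, Fbxo8 at −1.67 and Fbxo22 at −1.65. Trim16 thus lay between Trim63 and Trim55, and Trim35, Fbxo31 and Fbxo6 were close to Trim72. The adjusted p of these calls from limma ran from 7.60e-08 in Trim16 to 0.00851 in Trim45.

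The F-box ligases need the SCF core. Of 6 measured genes of that core and its activation by Nedd8, 3 fell and 0 rose (50.0% lower), with a median of −1.19. The share lower was 14.4% among genes with a symbol and 22.7% among probe sets at or above the median level. Skp1, the adaptor that holds the F-box protein, averaged 9.0 ± 0.26 at 48 h, against 10.81 ± 0.091 in controls (SD of 5 rats), and fell by 1.80 (adjusted p = 1.90e-07 from limma). The RING subunits Rbx1 and Rnf7 also fell, with changes of −1.56 and −1.43. After cyclic loess or quantile normalization 1 of the 6 was lower, and with olfactory centring 5. Of 13 other ligases studied in muscle 4 fell and 0 rose (30.8% lower, median −0.45), or 2 after cyclic loess or quantile normalization. Asb2, a muscle ligase adaptor, was at −2.74, Mdm2, the ligase of p53, at −1.83, Wwp1 at −1.31 and Neurl2 at −1.24. The 4 genes that encode ubiquitin have no probe set of that name here.

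Of 26 regulators of atrophy signalling 8 fell and 0 rose (30.8% lower), with a median of −0.36, beside 14.4% lower among genes with a symbol and 22.7% among probe sets at or above the median level. Prkaa2, a catalytic subunit of the energy sensor AMPK, averaged 7.19 ± 0.46 at 48 h, against 9.91 ± 0.11 in controls (SD of 5 rats), and fell by 2.72 (adjusted p = 2.92e-08 from limma). The coactivator Ppargc1a was at −2.45, the insulin-responsive kinase Akt2 at −1.98 and Klf15, a glucocorticoid-induced transcription factor, at −1.94. The FoxO genes encode the factors that drive Trim63 and Fbxo32 in living muscle. Foxo1 was at 0.66 (adjusted p = 0.0115) and Foxo3 at −0.05 (adjusted p = 0.863), both with overlapping groups, and Foxo4 fell by 1.09 (adjusted p = 0.000795). The glucocorticoid receptor gene Nr3c1 was at −1.0 and did not meet the fold criterion. Foxo1, Foxo3, Foxo4 and Nr3c1 were singled out after their values were seen.

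Known substrates and partners of the ligases fell in 12 of 18 (66.7%) and rose in 1, with a median of −1.53. Beside them, 14.4% of genes with a symbol and 22.7% of probe sets at or above the median level were lower. After cyclic loess 9 of the 18 were lower, after quantile normalization 10 and with olfactory centring 15. Myh1, the type IIx myosin heavy chain, averaged 7.41 ± 0.75 at 48 h, against 11.78 ± 0.15 in controls (SD of 5 rats), and fell by 4.37 (adjusted p = 8.79e-09 from limma). The myosin-binding protein Mybpc1 was at −3.68, Irs1 at −2.89 and the intermediate filament gene Des at −2.76. Eif3f, the atrogin-1 substrate, was at −1.52 and Mfn2, the Mul1 substrate, at −2.58, both lower by the criteria and named after their values were seen. Hspa1a, the inducible Hsp70 that CHIP binds, rose by 1.06 (adjusted p = 0.0132), with overlapping groups of 6.13 ± 0.71 at 48 h, against 5.06 ± 0.62 in controls (SD of 5 rats). Myh1, Myh4, Tnni2 and Ckm also stand among the myofibre markers.

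**Figure D5:**
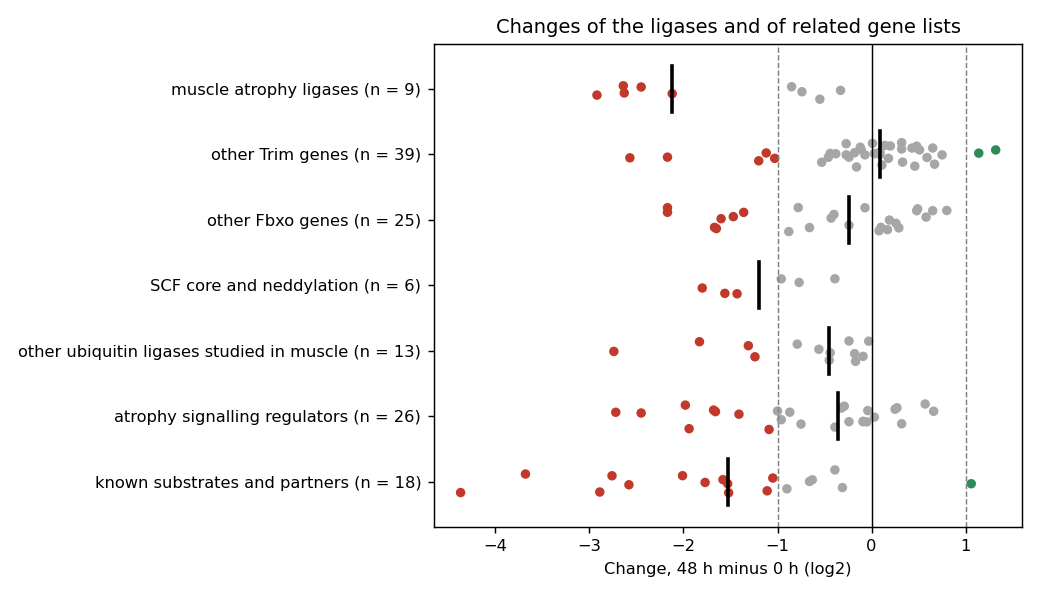
Change of each gene, 48 h minus 0 h (log2, horizontal axis), in the 9 ligases and in 6 related lists; red marks genes called lower, green higher and grey neither, and the black bar is the median of a list. The median of the ligases is −2.12 as measured and −1.07 with 3 genes at their bound, against 0.09 for the other Trim genes and −0.24 for the other Fbxo genes. The other Trim and Fbxo genes were dimmer at 0 h than the ligases and had less room to fall.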

How the data were processed

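Femoral muscle RNA of 10 rats was hybridised, 1 Clariom S array per rat. For the deposited log2 signals the authors used a Pico kit for amplification and biotin labelling, then RMA, which corrects background, quantile-normalizes probes and summarises each probe set. Transcriptome Analysis Console 4.0 and rn6 are named by the submitters. The values were used as they stand. Replicates were separate rats, whose small number limits precision.

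Of 24834 probe sets, 1646 controls were left out. Symbols came from the platform's probe table, updated to RefSeq (GRCr8) by gene identifier (15049 probe sets with 1 symbol, 8139 with none). Promoter sequences are from RefSeq (GRCr8). Groups were compared by limma 3.58.1 in R 4.3.3 (lmFit, eBayes, two-sided), tested on simulated data, with 8 residual and 8.99 prior degrees of freedom. All members were named. From each other list up to 4 genes with the largest changes among those called were named, plus up to 2 of the opposite direction, and exceptions are stated. Exact permutation tests used scipy 1.17.1 and figures matplotlib 3.10.9. The members and lists were chosen with earlier results of these data known. Alternatives covered scaling, moderation, filters, thresholds, the rat number as a block and each rat left out.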

Additional observations from a re-analysis of the deposited data

How the results depend on the processing

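The falls of Trim63, Trim54, Trim55, Trim72 and Fbxo32 kept their call in every alternative run, except that Trim72, like Fbxo21, was not tested after a filter at the median level. With each rat left out in turn, 5 ligases were lower and 0 higher throughout, and 2706 to 2898 probe sets were lower and 948 to 1118 higher. Centring on the olfactory receptors or dropping the fold criterion each gave 8 ligases lower. For all probe sets these gave 5396 lower and 172 higher, and 5296 lower and 5106 higher. The filter at the median level gave 534 higher. The share of lower among called probe sets was 73.6% as deposited, 61.1% after cyclic loess, 58.1% after quantile normalization and 96.9% with olfactory centring. Fbxo21, with an adjusted p of 0.0371, went above 0.05 in 7 of the 10 fits that left out a rat (highest 0.0915).

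Trim63 minus Fbxo32 changed sign to −0.017 after cyclic loess and −0.005 after quantile normalization, and ranged from −0.202 to 0.101 with a rat left out. Trim63 minus Trim55 was 0.004 after cyclic loess and −0.312 to −0.029 with a rat left out, Trim63 minus Trim54 ranged from 0.116 to 0.451 and Trim55 minus Trim54 from 0.301 to 0.666. None of these passed the test. No rat was sampled at both times, so a number shared between groups was not taken as a pairing. The correlation of same-numbered deviations was −0.004 to 0.076, although 3 of 5 rats at 48 h matched their own number best. With the rat number as a replicate block, 5 ligases were lower and 0 higher, with 2815 probe sets lower and 1009 higher, and the pair differences had adjusted p from 0.5 to 1.0. Each ligase had 1 probe set, so that choosing another was not possible.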

Other observations

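The ligases were also compared from rat to rat within a group. Over the 36 pairs of ligases, Pearson's correlation of the deviations from the group means over 10 rats had a median of −0.066 and ran from −0.812 (Trim63 with Trim72) to 0.65 (Fbxo32 with Stub1), with 15 pairs above 0. Trim63 and Fbxo32 had a correlation of −0.052. These values share the arrays and their scaling, and are given as a description.

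The genes whose deviations were most like those of Trim63 were Def6 (0.956), Pgls (0.947), Prmt3 (0.939), Zp4 (0.930) and Scnn1g (0.928), and those most like Fbxo32 were Tmem231 (0.960), Nf1 (0.953), Bag2 (0.950), Pip4k2a (0.949) and Fth1 (0.947), among 15037 genes over 10 rats. The highest of 15037 correlations over 10 rats can be this large without any link between genes, and a link was not tested. The changes of these genes at 48 h had both signs. Def6 was at −0.30, Zp4 at 0.68 and Nf1 at 0.48, while Bag2, a partner of Hsp70 chaperones, was at −1.97 and Prmt3 at −1.94.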
